A study of Mus musculus with 67 samples.

Results

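The transcripts of 41 genes of the primary cilium were followed through mouse forelimb buds before and after the onset of Hedgehog (HH) signaling, with and without GLI3. The genes were picked by name and by no measured value, but with earlier results of these data known. All 41 were found once each among the 46983 gene identifiers of the RNA-seq tables. They were grouped by role into 11 genes of the intraflagellar transport complex IFT-B, 4 of IFT-A, 4 subunits of the transport motors, 9 of the BBSome with its assembly and recruitment factors, 7 of the transition zone and 6 regulators of HH signaling that act in the cilium.

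The series holds 67 samples, of which 14 RNA-seq libraries are used here. E9.25 forelimb buds (21 to 23 somites), collected whole and pooled from about 4 pairs, gave 3 WT and 4 Gli3-/- libraries. Anterior parts of E10.5 forelimb buds (32 to 35 somites), pooled from 2 pairs by the sample annotation, gave 4 WT and 3 Gli3-/- libraries. The methods of the study instead give about 4 pairs a replicate at both stages. The E9.25 buds precede detectable HH signaling and the anterior E10.5 part lies outside the HH-responding domain, so the design asks what GLI3 does where the pathway is off. WT embryos were Swiss Webster, the background on which the Gli3 Xt-J allele, a null allele present in every tissue, was kept. No label ties a library to single embryos, and the p-values below measure the spread between pools. Stage, the part of the bud taken and, by the sample annotation, the number of pairs pooled change together between E9.25 and E10.5 and cannot be told apart. In such bulk RNA, fewer cells of a type and less RNA per cell cannot be told apart either.

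The primary cilium is a single microtubule-based projection of most vertebrate cells. Kinesin-2 carries IFT-B trains toward the tip and cytoplasmic dynein-2 returns them with IFT-A, the BBSome moves membrane proteins out of the cilium, and the transition zone gates its base. HH signaling in vertebrates runs through this organelle: PTCH1 leaves the cilium and SMO enters it on ligand binding, and GLI3 needs the cilium to be processed into its repressor form. Loss of IFT genes therefore alters digit number and limb patterning, and several human ciliopathies include polydactyly. RFX transcription factors bind a palindrome known as the X-box in the promoters of many of these genes.

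The promoters are shown first because an RFX-type palindrome, which played no part in choosing the members, was found in some of them. RefSeq promoter windows of 300 bases (250 before and 50 after the gene's start, build GRCm38.p6) were at hand for 38 of the 41 members, all but Ift80, Ift81 and Ift122. An X-box, written as GTTNCC, a spacer of 0 to 3 bases and GGNAAC and searched on both strands, was present in 5 of the 38 (13.2%), against 0.936% of the 27025 genes with a window. Of these matches 4 are given here in capitals, with up to 10 flanking bases in lower case, 5′ to 3′ on the strand of the gene, and the Tctn1 match ends at the last base of its window.
Bbs7, chr3:36613487-36613520 (- strand): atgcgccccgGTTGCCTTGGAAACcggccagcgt
Mks1, chr11:87853181-87853214 (+ strand): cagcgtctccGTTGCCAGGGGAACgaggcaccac
Tctn1, chr5:122264411-122264434 (- strand): ggctgtgactGTTGCCCGGGCAAC
Tctn3, chr19:40612349-40612381 (- strand): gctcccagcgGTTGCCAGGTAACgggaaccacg

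Counting the first transcribed base as 1 and the base before it as -1, the match began at position -121 in Bbs7, -24 in Mks1, -140 in Tctn3 and 37 in Tctn1. The spacer was 2 bases in Bbs7, Mks1 and Tctn1 and 1 base in Tctn3. The single arm GTTGCC of the palindrome, counted on both strands and contained in each of the 5 X-boxes, occurred in 19 of the 38 members (50%), against 14.1% of the genes with a window. The GLI motif GACCACCCA occurred in 0 of the 38 and in 0.289% of genes, and the E-box CACGTG in 1 (Bbs7) against 8.09% of genes. A match describes letters in a window and is no measured binding site.

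The windows of the 5 members whose rise with stage in WT passed in every setting and that have one are given in full, 5′ to 3′ on the gene's strand. Capitals mark the X-box in Tctn1 and the single arm, in either orientation, in Ift172, Evc, Bbs1 and Kif3a. The arm began at position 1 in Ift172, 2 in Bbs1, -98 in Kif3a and -183 in Evc.
Ift172, chr5:31291065-31291364 (- strand): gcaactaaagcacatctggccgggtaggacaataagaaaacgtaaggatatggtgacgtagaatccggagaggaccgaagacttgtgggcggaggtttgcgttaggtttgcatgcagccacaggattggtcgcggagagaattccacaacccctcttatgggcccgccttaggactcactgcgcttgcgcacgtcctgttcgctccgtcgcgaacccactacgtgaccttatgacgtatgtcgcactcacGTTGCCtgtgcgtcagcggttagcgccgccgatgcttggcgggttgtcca
Evc, chr5:37336832-37337131 (- strand): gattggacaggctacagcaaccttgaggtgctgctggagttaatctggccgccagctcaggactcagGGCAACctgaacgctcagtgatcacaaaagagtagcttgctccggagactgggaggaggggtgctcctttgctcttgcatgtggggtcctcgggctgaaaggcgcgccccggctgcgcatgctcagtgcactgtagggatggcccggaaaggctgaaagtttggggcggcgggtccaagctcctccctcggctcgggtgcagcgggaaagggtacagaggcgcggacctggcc
Tctn1, chr5:122264411-122264710 (- strand): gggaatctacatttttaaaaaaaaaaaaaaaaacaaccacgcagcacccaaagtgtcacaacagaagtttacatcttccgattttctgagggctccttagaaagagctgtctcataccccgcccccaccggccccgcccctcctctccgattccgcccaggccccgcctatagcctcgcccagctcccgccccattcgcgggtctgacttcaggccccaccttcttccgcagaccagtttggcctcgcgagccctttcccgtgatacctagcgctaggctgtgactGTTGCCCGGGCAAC
Bbs1, chr19:4906578-4906877 (- strand): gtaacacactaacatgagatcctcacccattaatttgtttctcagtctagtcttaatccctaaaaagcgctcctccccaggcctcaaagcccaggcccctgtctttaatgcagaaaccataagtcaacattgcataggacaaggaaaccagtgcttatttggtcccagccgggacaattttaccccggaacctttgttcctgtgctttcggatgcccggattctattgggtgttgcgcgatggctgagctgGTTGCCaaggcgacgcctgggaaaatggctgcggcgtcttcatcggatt
Kif3a, chr11:53567119-53567418 (+ strand): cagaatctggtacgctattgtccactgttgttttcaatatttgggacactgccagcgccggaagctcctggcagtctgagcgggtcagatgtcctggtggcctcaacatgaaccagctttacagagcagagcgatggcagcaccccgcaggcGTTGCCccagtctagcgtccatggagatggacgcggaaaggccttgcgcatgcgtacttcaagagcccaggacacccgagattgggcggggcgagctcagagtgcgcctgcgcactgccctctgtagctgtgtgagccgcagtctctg

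Depth was estimated at 38.1 to 56.8 M reads a library, so that 1 TPM (a level per length, scaled to the same sum in each library) stood for 20.7 to 29.3 reads per kilobase of transcript. Gli3 itself was read at 44.2, 15.8 and 44.6 TPM in E9.25 WT against 14.3 to 20.8 TPM in E9.25 Gli3-/-, and at 73.4 to 89.7 TPM in E10.5 WT against 38.7 to 40.9 TPM in E10.5 Gli3-/-. Xt-J deletes part of the gene, and reads of the rest remain. The library labelled E9.25 WT replicate 2 lay within the Gli3-/- range for Gli3, and there genes spanning at least 100 kb lay a median 0.51 and the members a median 0.39 on the log2 scale below the other WT replicates, against 0.20 for all genes. The main counts of calls and medians, and the changes with stage in WT of several members, are also given without it. Values with no such mention, among them the summed levels, include it. Limb mesenchyme markers were present in every library (8 genes, summed 725 to 1177 TPM). Summed markers of flank and lateral plate mesoderm (8 genes) ran from 23.8 to 64.5 TPM in E9.25 WT, with replicate 2 inside this range. They ran from 81.2 to 223 TPM in E9.25 Gli3-/- and from 1.13 to 3.98 TPM at E10.5, with Nkx2-5 listed at 0 in every library. Summed markers of macrophages (6 genes) ran from 0.0634 to 1.55 TPM at E9.25 and from 9.78 to 15.1 TPM at E10.5, and those of muscle progenitors (6 genes) from 5.88 to 11.5 and from 28.0 to 52.4 TPM, while Ptprc of macrophages and Pax7 of muscle progenitors stayed under 1 TPM in every library. The part of these cell types in the results below was not tested.

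Every member was transcribed in the early limb bud. All 41 reached at least 1 TPM in every library of 3 groups, and 40 did so in E9.25 WT. The exception was Dync2h1, the dynein-2 heavy chain and a gene spanning 256 kb, with 4.52, 0.694 and 5.58 TPM in the E9.25 WT libraries. The median member stood at 11.4 and 12.8 TPM in WT and Gli3-/- buds of E9.25 and at 16.0 and 14.4 TPM in those of E10.5, where the median of all genes with a mean of at least 1 TPM was 14.9, 16.4, 16.3 and 16.4 TPM. Together the members made up 0.0546% to 0.0985% of the TPM of a library.

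TPM is a level per length, which allows an order of the members. Averaged over the 4 group means, Ift46 (54.6 TPM) and Ift20 (52.9 TPM), both of IFT-B, led, followed by B9d1 of the transition zone (42.4 TPM), Ift74 (40.5 TPM) and Kifap3, the kinesin-2 accessory subunit (39.1 TPM). At the other end were Bbs1 (3.86 TPM), the chaperonin-like assembly factor Bbs10 (4.87 TPM) and Dync2h1 (5.57 TPM). Subunits of the same complex differed widely: Bbs1 stood at 3.86 TPM while Bbs5 of the same complex stood at 12.8 TPM, and within IFT-B the levels ran from 8.98 TPM for Ift57 to 54.6 TPM for Ift46. Neighbours in this order mostly overlapped in their values. Ift46 ranged from 28.9 to 80.3 TPM over the 14 libraries and Ift20 from 43.5 to 58.9 TPM, so that their order is not set.

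The other class of cilia, the motile kind, was little represented. Of 18 genes of motile cilia, 13 or 14 had a group mean under 1 TPM in each group, with the dynein arm genes Dnah5, Dnah9 and Dnah11 and the multiciliation factors Mcidas and Gmnc under 1 TPM in every library. Foxj1, the main activator of the motile program, ran from 0.653 to 2.35 TPM. Of the 7 RFX factors, Rfx4 and Rfx6 stayed under 1 TPM in every library, while Rfx3 was read at 11.8, 2.32 and 9.75 TPM in E9.25 WT and between 10.1 and 15.3 TPM in the other libraries.

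**Figure D1:**
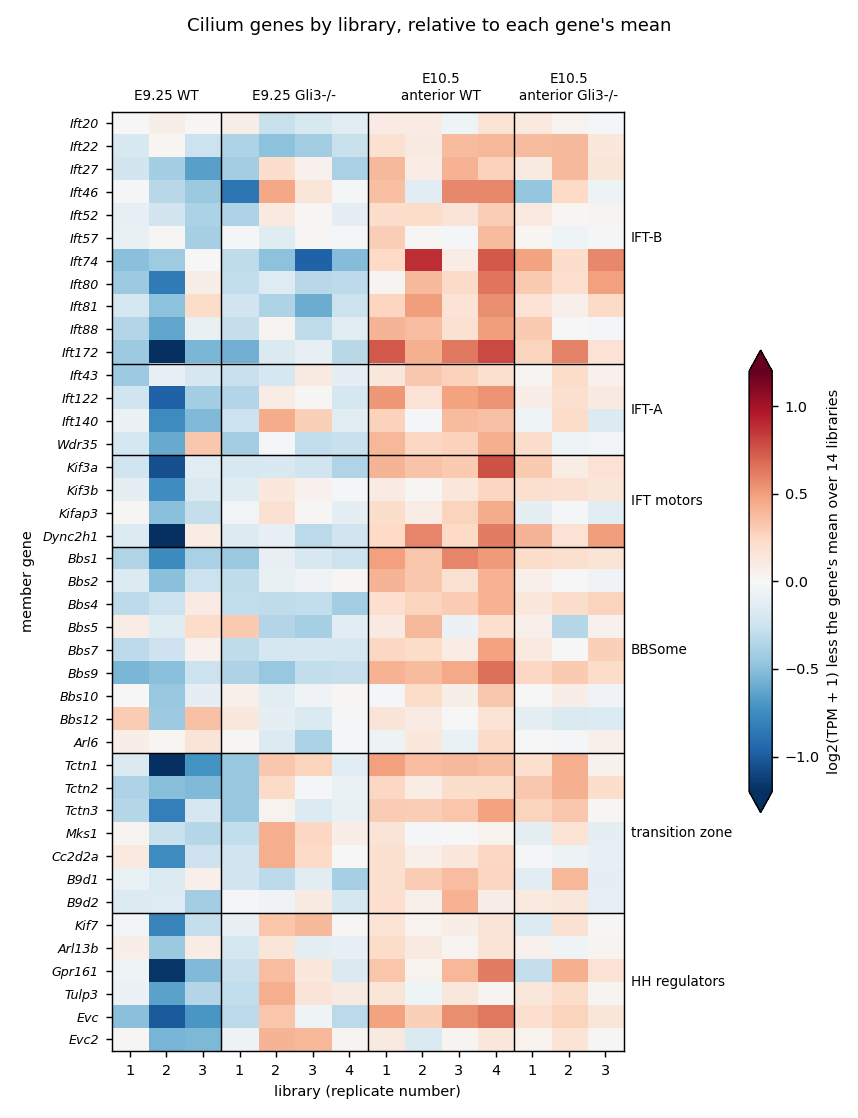
Level of the 41 members (rows, by role) in the 14 libraries (columns, by group and replicate number), as log2(TPM + 1) less the mean of the gene over all libraries; colours stop at 1.2 in either direction. The 4 E10.5 WT columns are mostly red, the 3 E9.25 WT columns mostly blue with the darkest in replicate 2, and the Gli3-/- columns are paler and mixed.

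The stage comparison asks whether cilium transcripts change between the pre-HH bud and the anterior part of the post-HH bud. In WT, 27 of 41 members (65.9%) rose and 0 fell (limma on log2(TPM + 1), Benjamini-Hochberg adjusted over 15444 genes), where 48.7% of all genes were called, 38.1% higher and 10.6% lower. The median member changed by 0.50 on the log2 scale and the median gene by 0.34, so that the members lay 0.17 above the median of all genes, and 33 of 41 were above it. Of the 41, 27 had every E10.5 value above every E9.25 value, as did 41.5% of all genes. The excess of calls over the background depended on scaling. With median-of-ratios size factors, which move the median of all genes by -0.298, 13 members (31.7%) were higher against 20.6% of genes, and with quantile normalization 7 members (17.1%) against 17.3% of genes, a share near the background. The 1 member called lower (2.44%) was Arl6 with size factors and Bbs12 with quantile normalization, against 21.2% and 19.7% of all genes lower. The members' median lay 0.14 above that of all genes with size factors, 0.18 with quantile normalization and 0.13 with the trend with gene span removed. Leaving out the library labelled E9.25 WT replicate 2 left 22 members called (53.7%, against 33.6% of all genes), with a median 0.21 above that of all genes. Leaving out E10.5 WT replicate 4 left 17 (41.5%, against 26.2% of all genes higher).

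In Gli3-/- limb buds, 9 of 41 members (22%) rose with stage and 0 fell, where 25% of all genes were called, 15.8% higher and 9.17% lower. The median member changed by 0.22 against 0.06 for all genes, which puts the members 0.16 above it. The groups did not overlap for 12 members, all higher at E10.5 (29.3%, against 22.3% of all genes). Without E10.5 Gli3-/- replicate 3, 5 members were called (12.2%, against 9.21% of all genes higher). The stage comparisons of WT and Gli3-/- share no library: 8 of the 9 members called in Gli3-/- were also among the 27 in WT, which is 88.9% of the first list and 29.6% of the second, and for all genes the same shares were 84.4% and 34.9%.

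**Figure D2:**
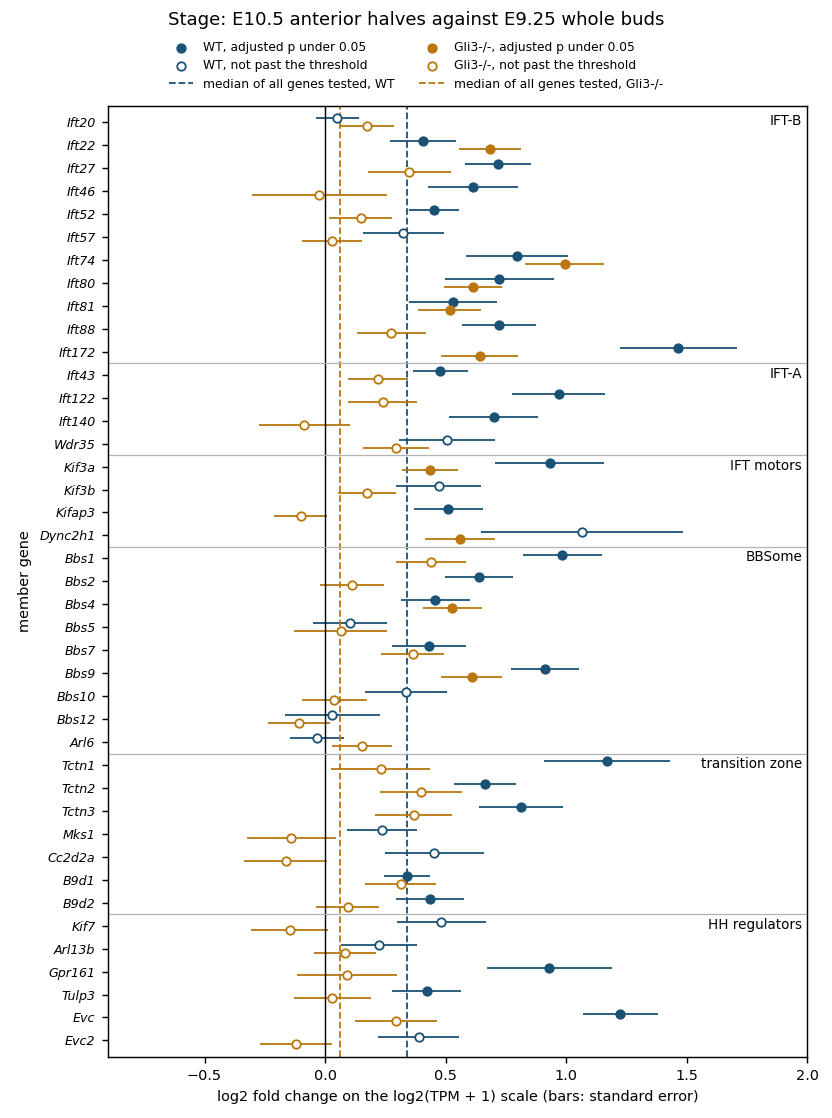
Change with stage of each member (rows, by role) as the log2 fold change of E10.5 anterior over E9.25 buds, in WT (blue) and Gli3-/- (ochre); bars are standard errors, filled points passed adjusted p 0.05, and dashed lines are the medians of all genes tested, 0.34 in WT and 0.06 in Gli3-/-. All WT points but Arl6 lie right of 0, and Ift172, Evc and Tctn1 lie farthest right.

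IFT-B carries ciliary cargo toward the tip, and 9 of its 11 genes rose with stage in WT and 5 in Gli3-/-. Of all genes, 38.1% were called higher in WT and 15.8% in Gli3-/-. Without the library labelled WT replicate 2 of E9.25, 7 of the 11 rose in WT (63.6%, against 33.6% of all genes). The largest rise of any member was that of Ift172, a peripheral IFT-B subunit (chr5:31253277-31291116, build mm10 by the submitters' processing notes). It was read at 10.55, 4.64 and 9.69 TPM in E9.25 WT and at 25.1, 20.0, 23.2 and 26.1 TPM in E10.5 WT, without overlap. The log2 fold change was 1.47 ± 0.24 (SE, adjusted p = 0.00219), 1.13 above the median of all genes, and 1.14 without the library labelled WT replicate 2 of E9.25. In Gli3-/- buds Ift172 went from 9.43, 12.8, 13.6 and 11.4 TPM to 17.8, 22.6 and 16.6 TPM, a log2 fold change of 0.64 ± 0.16 (SE, adjusted p = 0.0152), and without E10.5 Gli3-/- replicate 2 it fell short of the threshold at 0.52.

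Ift74 forms with Ift81 the part of IFT-B that binds tubulin, and it led the members in Gli3-/-. It was read at 30.4, 26.6, 18.7 and 26.1 TPM at E9.25 and at 53.2, 43.9 and 56.7 TPM at E10.5 (chr4:94614491-94693229), with no overlap. The log2 fold change was 0.99 ± 0.16 (SE, adjusted p = 0.00169), 0.93 above the median of all genes. In WT the values were 26.3, 27.9 and 37.8 TPM and then 44.6, 70.5, 40.3 and 63.7 TPM, a wide spread at E10.5, and the log2 fold change of 0.80 (adjusted p = 0.0159) passed in 5 of 10 other settings. Ift81 changed by 0.53 in WT (adjusted p = 0.0389) and 0.52 in Gli3-/- (adjusted p = 0.0151). The WT call of Ift81 passed in 4 of 10 other settings and in 2 of the 7 fits that left out a library.

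Ift22 and Ift27 are small GTPase-like subunits of IFT-B, and Ift27 is needed for the BBSome to export HH receptors. Ift22 was read at 9.88, 8.99, 9.54 and 10.7 TPM in E9.25 Gli3-/- and at 17.3, 17.4 and 14.3 TPM in E10.5 Gli3-/-. The rise of 0.68 ± 0.13 (SE, adjusted p = 0.00366) passed in every setting, whereas the WT change of 0.41 (adjusted p = 0.0358) became -0.01 under quantile normalization. Ift27 rose in WT by 0.72 (adjusted p = 0.00407) and changed by 0.35 in Gli3-/- (adjusted p = 0.169).

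Ift80, a peripheral IFT-B subunit that is mutated in a human short-rib skeletal dysplasia, was at 15.3, 17.0, 14.9 and 15.1 TPM in E9.25 Gli3-/- and at 24.0, 22.1 and 27.1 TPM in E10.5 Gli3-/-. Its log2 fold change there was 0.61 ± 0.12 (SE, adjusted p = 0.00442). In WT the E9.25 values of 13.8, 10.2 and 20.1 TPM overlapped the E10.5 values of 19.5, 25.3, 22.5 and 30.3 TPM, and the change of 0.72 (adjusted p = 0.0278) passed in 2 of the 7 fits that left out a library. Ift80 overlaps 3 transcribed genes on its own strand, and the tables do not state how shared reads were assigned or whether strand was used. Among the members, 10 overlap a gene with at least 1 TPM in a library. For Ift80, Evc and Tulp3 such a gene lies on the same strand. For others, such as Tctn1, Ift74, Ift140 and Bbs9, it lies on the opposite strand.

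Ift88, the core subunit whose mutation gave the classic polydactylous cilium mutant, rose in WT by 0.72 (adjusted p = 0.00635), from 11.3, 9.23 and 13.7 TPM to 19.8, 19.3, 16.8 and 21.3 TPM, and by 0.59 without the library labelled WT replicate 2 of E9.25. In Gli3-/- the change was 0.27 (adjusted p = 0.191). The core subunits Ift46 and Ift52 were also called in WT, at 0.62 and 0.45, and not in Gli3-/-, at -0.02 and 0.15. The IFT-B genes not called in either stage comparison were Ift20, which also serves at the Golgi (0.05 and 0.17 in WT and Gli3-/-), and Ift57 (0.32 and 0.03).

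IFT-A returns cargo to the cell body and, with TULP3, admits membrane receptors to the cilium. In WT 3 of its 4 members rose, also without the library labelled WT replicate 2 of E9.25, and in Gli3-/- 0 were called. The shares of all genes called higher were 38.1% in WT, 33.6% in WT without that library and 15.8% in Gli3-/-. Ift122 (chr6:115853470-115926699) stood at 9.81, 5.54 and 8.62 TPM in E9.25 WT and at 17.4, 13.4, 16.8 and 17.6 TPM in E10.5 WT. This was a log2 fold change of 0.97 ± 0.19 (SE, adjusted p = 0.00479), 0.63 above the median of all genes and 0.76 without the library labelled WT replicate 2 of E9.25. In Gli3-/- Ift122 went from 9.03, 12.6, 11.9 and 10.1 TPM to 12.5, 13.6 and 12.8 TPM (0.24, adjusted p = 0.253) with the highest E9.25 value just above the lowest E10.5 value. Ift140 changed by 0.70 in WT (adjusted p = 0.0149, 0.55 without the same library) and -0.09 in Gli3-/- (adjusted p = 0.783). Ift43 was called in WT (0.48), with a value of -0.03 once the trend with gene span was removed, and Wdr35 was not (0.50, adjusted p = 0.0619).

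Of the motors, Kif3a, a motor subunit of kinesin-2 (chr11:53567379-53601967), rose in both genotypes. Its values were 16.9, 9.18 and 18.2 TPM in E9.25 WT and 27, 25.9, 25.3 and 34.9 TPM in E10.5 WT, without overlap. The log2 fold change was 0.93 ± 0.23 (SE, adjusted p = 0.0108), 0.59 above the median of all genes and 0.64 without the library labelled WT replicate 2 of E9.25. In Gli3-/- Kif3a went from 17.5, 17.6, 17.0 and 15.5 TPM to 25.3, 21.5 and 22.9 TPM (0.44, adjusted p = 0.0203). Kifap3, which links the kinesin to its cargo, was called in WT at 0.51 (adjusted p = 0.0182) and not in Gli3-/- (-0.10, adjusted p = 0.548). The partner motor subunit Kif3b was not called (0.47 in WT, adjusted p = 0.0517). Dync2h1 passed in Gli3-/- (0.56, adjusted p = 0.0176), from 4.54, 4.78, 3.96 and 4.26 TPM to 7.19, 5.96 and 7.74 TPM. In WT, where the E9.25 values of Dync2h1 included the 0.694 TPM named above, its larger change of 1.07 did not pass (SE 0.42, adjusted p = 0.0610) and was 0.46 without replicate 2.

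The BBSome sorts receptors for export from the cilium, and in WT 5 of its 9 genes rose and in Gli3-/- 2 did. Of all genes, 38.1% were called higher in WT and 15.8% in Gli3-/-. Without the library labelled WT replicate 2 of E9.25, 3 of the 9 rose in WT (33.3%, against 33.6% of all genes), a share near the background. Bbs1, the subunit that binds ARL6 (chr19:4886898-4906627), was read at 2.70, 1.79 and 2.63 TPM in E9.25 WT and at 5.68, 4.96, 6.11 and 5.78 TPM in E10.5 WT. Its log2 fold change was 0.98 ± 0.16 (SE, adjusted p = 0.00221), 0.65 above the median of all genes and 0.85 without the library labelled WT replicate 2 of E9.25. Bbs9, a scaffold subunit, rose by 0.91 in WT (adjusted p = 0.00165) and 0.61 in Gli3-/- (adjusted p = 0.00620). It stood between 5.33 and 6.72 TPM in all 7 E9.25 libraries and between 9.78 and 13.6 TPM in all 7 E10.5 libraries. Bbs4 rose in both genotypes (0.46 and 0.53) and Bbs2 and Bbs7 in WT (0.64 and 0.43), although Bbs7 became -0.03 under quantile normalization. The WT call of Bbs4 passed in 5 of 10 other settings and that of Bbs7 in 4. Each passed in 1 of the 7 fits that left out a library. The assembly factors Bbs10 and Bbs12 and the subunit Bbs5 were not called in either genotype, nor was Arl6, the small GTPase that recruits the BBSome to membranes. Arl6 was read at 33.8, 32.4 and 35.7 TPM in E9.25 WT and at 30.5, 35.0, 30.1 and 37.6 TPM in E10.5 WT, overlapping ranges around a change of -0.03.

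The transition zone showed 5 called members of 7 in WT and 0 in Gli3-/-, and all 3 tectonics were among the 5. Of all genes, 38.1% were called higher in WT and 15.8% in Gli3-/-. The count in WT was also 5 without the library labelled WT replicate 2 of E9.25 (71.4%, against 33.6% of all genes). Tectonics form part of the gate at the ciliary base, and Tctn1 is known as a regulator of HH signaling. Tctn1 (chr5:122237848-122264460) was read at 6.10, 2.00 and 3.87 TPM in E9.25 WT and at 10.3, 9.31, 9.48 and 9.26 TPM in E10.5 WT. The log2 fold change was 1.17 ± 0.26 (SE, adjusted p = 0.00759), 0.83 above the median of all genes and 0.85 without the library labelled WT replicate 2 of E9.25. In Gli3-/- the E9.25 values of 4.82, 9.01, 8.59 and 6.26 TPM overlapped the E10.5 values of 8.18, 9.81 and 7.30 TPM (0.23, adjusted p = 0.452). Tctn3 rose in WT by 0.81 and Tctn2 by 0.66 (adjusted p = 0.00669 and 0.00418), and by 0.63 and 0.64 without that library. The B9-domain genes B9d1 and B9d2 were called at 0.34 and 0.44, where the median of all genes was 0.34, and Mks1 and Cc2d2a were not (0.24 and 0.45).

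Among the ciliary regulators of HH signaling, 3 of 6 rose in WT and 0 in Gli3-/-, where 38.1% and 15.8% of all genes were called higher. Without the library labelled WT replicate 2 of E9.25, 2 of the 6 rose in WT (33.3%, against 33.6% of all genes), a share near the background. Evc acts with Evc2 just above the transition zone to pass the signal from SMO to the GLI proteins. Evc (chr5:37289098-37336894) had values of 10.8, 7.28 and 9.31 TPM in E9.25 WT and of 22.4, 19.3, 23.5 and 24.9 TPM in E10.5 WT. The log2 fold change was 1.23 ± 0.16 (SE, adjusted p = 0.000633), 0.89 above the median of all genes and 1.09 without the library labelled WT replicate 2 of E9.25. In Gli3-/- Evc went from 12.4, 20.0, 15.1 and 12.3 TPM to 18.2, 19.1 and 17.4 TPM, and the change of 0.29 did not pass (adjusted p = 0.234). Evc2, its head-to-head neighbour, was not called in either genotype (0.39 and -0.12). Evc overlaps a transcribed gene on its own strand.

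Gpr161, a ciliary receptor that restrains the pathway through cAMP, rose in WT by 0.93 (adjusted p = 0.0182), from 9.27, 3.73 and 6.35 TPM to 12.4, 9.97, 13 and 15.3 TPM. The change of Gpr161 was 0.64 without the library labelled WT replicate 2 of E9.25 (adjusted p = 0.0254). Tulp3, which brings Gpr161 into the cilium, was called at 0.42 (adjusted p = 0.0379) and passed in 2 of the 7 fits that left out a library. Kif7, the tip kinesin that organizes GLI proteins, and Arl13b, a GTPase of the ciliary membrane, did not pass (0.48 and 0.22). Both Kif7 and Evc2 had negative values in Gli3-/- (-0.15 and -0.12), neither past the test.

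**Figure D3:**
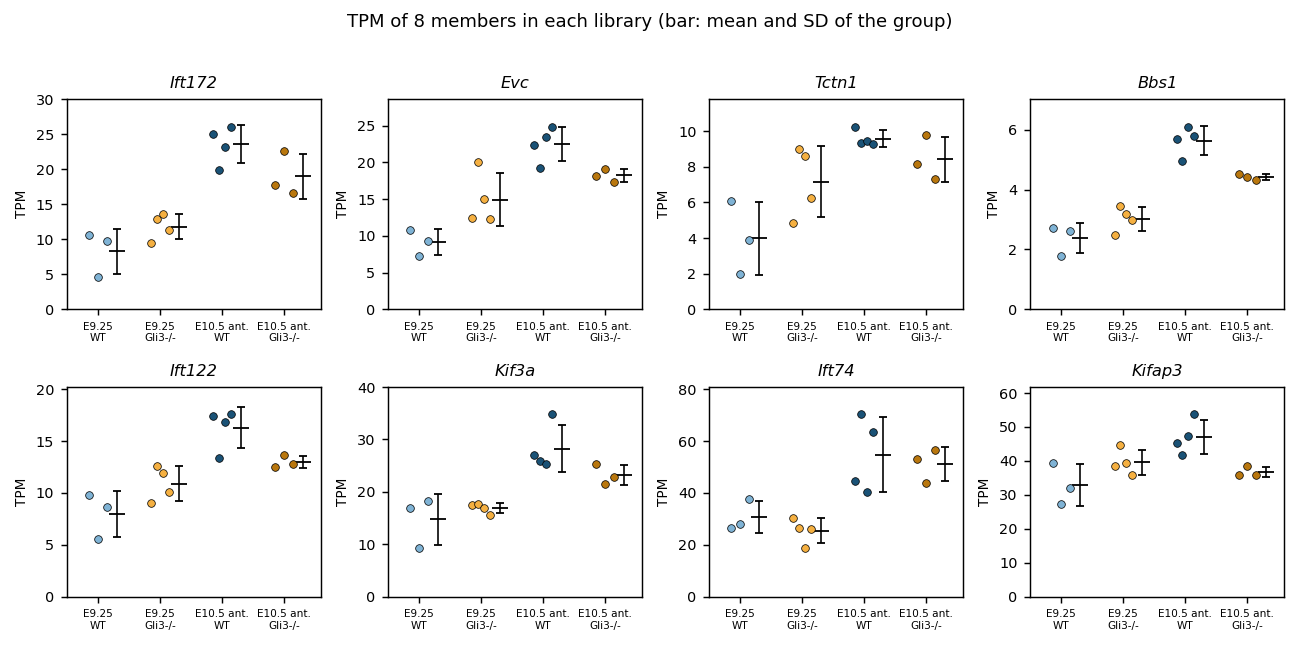
TPM of 8 members in each library (points, linear axes from 0), with the mean and SD of each group beside the points. The first 6 panels show the members that rose with stage in WT in every setting, where the E10.5 WT points lie above all E9.25 WT points; Ift74 rose in both genotypes, and the E10.5 Gli3-/- points of Kifap3 lie below those of E10.5 WT.

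Which calls were stable can be counted. In WT, Ift172, Evc, Tctn1, Bbs1, Ift122 and Kif3a passed in all 10 other settings and all 7 fits that left out a library, and the other called members lost the call in at least 1 of these. In Gli3-/-, Ift74, Ift22 and Ift80 passed in all of them. Within the called WT members the log2 fold changes under size factors were smaller, for instance 0.89 for Tctn1 and 0.61 for Kif3a. The value of 4 WT calls changed sign under 1 setting each: Ift22 and Bbs7 with quantile normalization, and Ift43 (-0.03) and Kifap3 (-0.06) with the trend with gene span removed.

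A list of 56 further cilium genes, none of them members, was examined in the same fits. Of these, 55 were tested and Kif17, an accessory kinesin, stayed under 1 TPM in every library. In WT 35 rose with stage and 0 fell, where 38.1% of all genes were called higher, and the median lay 0.26 above that of all genes. In Gli3-/- 15 rose and 0 fell, where 15.8% of all genes were called higher, and the median lay 0.20 above that of all genes. In WT 29 rose without the library labelled WT replicate 2 of E9.25 (52.7%, against 33.6% of all genes), with a median 0.19 above it. Among those with the largest changes in WT were the TULP3 relative Tub (1.24, adjusted p = 0.00169), the transition zone gene Tmem231 (1.21, adjusted p = 0.000798) and the IFT-A gene Wdr19 (1.13, adjusted p = 0.00429). In Gli3-/- they included the transition zone genes Cep290 (1.00, adjusted p = 0.00638), Tmem67 (0.74, adjusted p = 0.00240) and Tmem231 (0.66, adjusted p = 0.0158), and the centriolar satellite gene Pcm1 (0.64, adjusted p = 0.0113). Tmem231, for example, was read at 5.85, 4.20 and 4.38 TPM in E9.25 WT and at 12.8, 10.3, 13.1 and 13.3 TPM in E10.5 WT.

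Of the RFX factors, 3 of the 5 tested rose with stage in WT, where 38.1% of all genes were called higher, and 2 in Gli3-/-, where 15.8% were. The count in WT was also 3 without the library labelled WT replicate 2 of E9.25 (60%, against 33.6% of all genes). Rfx2, a ciliogenic member of the family, was read at 1.28, 0.699 and 0.861 TPM in E9.25 WT and at 2.92, 3.00, 3.63 and 3.26 TPM in E10.5 WT (1.12, adjusted p = 0.00130), and changed by 0.62 in Gli3-/- (adjusted p = 0.0327). Rfx5, which acts at MHC class II promoters, rose by 1.70 and 1.17, and Rfx1 by 0.77 in WT. Rfx3 did not pass (0.84 in WT, adjusted p = 0.112, and 0.23 without that library). Of the 5 motile cilium genes tested, 3 rose in WT, with and without that library, and 2 in Gli3-/-, against the same background shares, with Tekt1 and Ccdc39 in both and Rsph9 in WT.

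The promoter letters can be set beside the stage result as a description. Of the 19 members with the arm GTTGCC, 13 rose in WT, and of the 19 with a window but no arm 11 did. Of all genes, 38.1% were called higher in WT. Their median changes lay 0.36 and 0.12 above the median of all genes in WT, and 0.23 and 0.05 above it in Gli3-/-. Without the library labelled WT replicate 2 of E9.25 the counts in WT were 12 (63.2%) and 9 (47.4%), against 33.6% of all genes. The medians then lay 0.30 and 0.14 above that of all genes. Of the 5 with a complete X-box, Bbs7, Tctn1 and Tctn3 rose in WT and 0 were called in Gli3-/-. The median change of the 5 lay 0.09 above that of all genes in WT and 0.17 above it in Gli3-/-. In WT 2 were called without that library (40%, against 33.6% of all genes), with a median 0.16 above that of all genes.

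The genotype comparison at E10.5 asks whether loss of GLI3 changes cilium transcripts in the anterior bud, where GLI3 repressor normally acts. By limma 0 of 41 members passed, where 4.77% of all genes were called, 1.84% higher and 2.93% lower. At an unadjusted p under 0.05 there were 10 (24.4%, against 19.6% of all genes). At an adjusted p of 0.1 there were 2, both lower (4.88%, against 5.1% of all genes lower), a share near the background. The estimate was negative for 35 of 41, also with size factors, and the median was -0.16 against -0.02 for all genes. For 10 members (24.4%) every Gli3-/- value lay below every WT value, against 11.5% of all genes, and for 0 members did every value lie above, against 7.87% of all genes. These 10 were Ift52, Wdr35, Kif3a, Kifap3, Bbs1, Bbs2, Bbs9, Bbs12, Cc2d2a and Evc.

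The smallest p was that of Kifap3 (chr1:163779583-163917109), read at 45.4, 41.6, 47.3 and 53.9 TPM in WT and 36.0, 38.6 and 35.7 TPM in Gli3-/-. The log2 fold change was -0.34 ± 0.09 (SE, adjusted p = 0.0686), and with size factors it passed (adjusted p = 0.0433). Bbs2, a BBSome subunit, was read at 12.5, 11.8, 10.6 and 12.7 TPM in WT and 9.66, 9.24 and 8.96 TPM in Gli3-/- (-0.32 ± 0.10, SE, adjusted p = 0.0983). Next came Wdr35 (-0.29, adjusted p = 0.123), Evc (-0.28, adjusted p = 0.146) and Bbs12 (-0.25, adjusted p = 0.154). With sample quality weights 6 members passed, all lower (14.6%, against 5.69% of all genes lower). Leaving out E10.5 WT replicate 2 gave 2 calls (4.88%, against 2.91% of all genes lower). Leaving out E10.5 Gli3-/- replicate 2 gave 1 (2.44%, against 1.91% of all genes lower). Of the 55 other cilium genes tested, Tmem237 of the transition zone was the 1 that passed (-0.37, adjusted p = 0.0317), at 27.5, 31.1, 29.4 and 31.5 TPM in WT and 24.3, 21.7 and 22.6 TPM in Gli3-/-. Limb mesenchyme markers summed to 974 to 1177 TPM in E10.5 WT and 725 to 798 TPM in E10.5 Gli3-/-, and erythroid markers (8 genes) to 11430 to 15844 TPM and 13563 to 38251 TPM, with all 8 positive and a median change of 0.56. The part of these differences in the members' values was not tested.

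**Figure D4:**
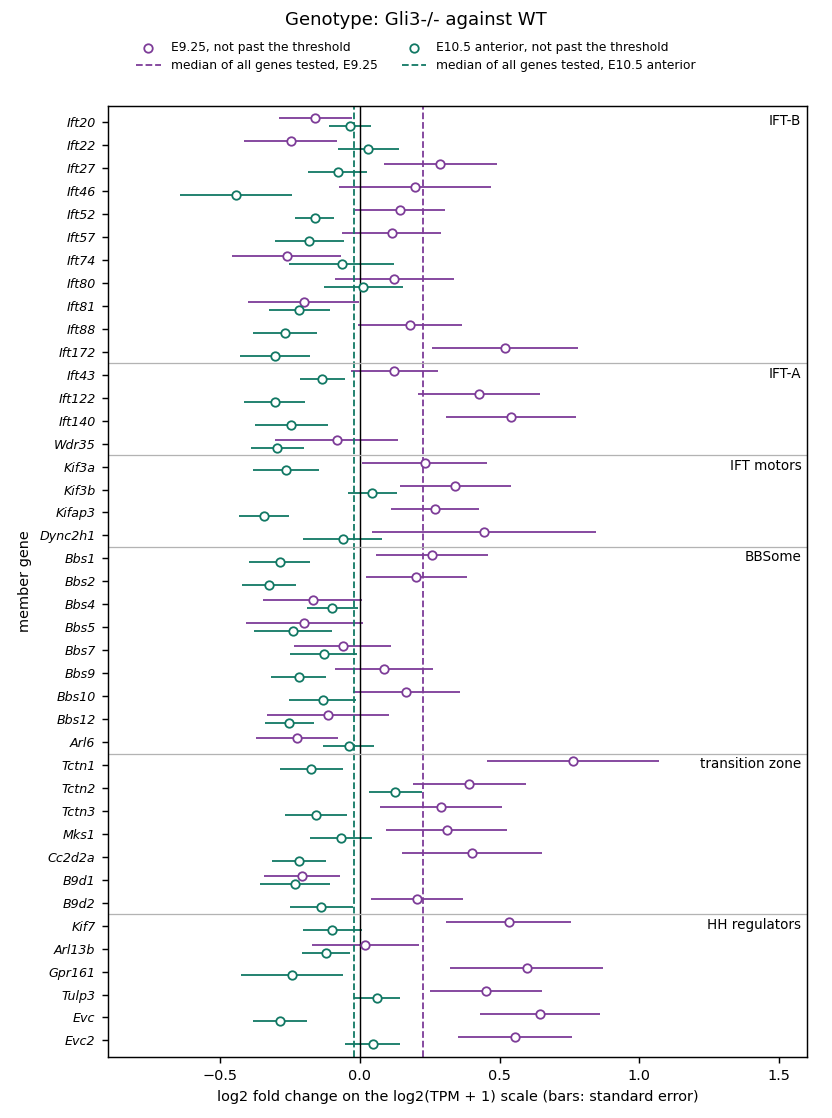
Effect of genotype on each member (rows, by role) as the log2 fold change of Gli3-/- over WT, at E9.25 (purple) and in the anterior part at E10.5 (green); bars are standard errors and dashed lines the medians of all genes tested, 0.23 and -0.02. Open points show that 0 members passed at either stage; 35 of 41 green points lie left of 0 and 30 of 41 purple points right of it.

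The genotype comparison at E9.25 asks whether GLI3 affects these transcripts before HH signaling begins. By limma 0 of 41 members passed, where 0.136% of all genes were called, 0.108% higher and 0.0271% lower. At an unadjusted p under 0.05 there were 6 (14.6%, against 22% of all genes), and without the library labelled WT replicate 2 of E9.25 there was 1 (2.44%, against 11% of all genes). The estimates were positive for 30 members, with a median of 0.20 against 0.23 for all genes. Without the library labelled WT replicate 2 of E9.25 the medians were 0.13 and 0.14. Size factors moved the median of all genes by -0.202, after which 22 of 41 were negative. The members with the smallest p were Evc (0.65), Evc2 (0.55), Tctn1 (0.76), Kif7 (0.53) and Ift140 (0.54), with adjusted p from 0.217 to 0.221. Without the library labelled WT replicate 2 of E9.25 these values were 0.51, 0.46, 0.44, 0.32 and 0.39.

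Evc was the 1 member with every Gli3-/- value above every WT value, at 12.4, 20.0, 15.1 and 12.3 TPM against 10.8, 7.28 and 9.31 TPM, which 9.97% of all genes also showed. Ift22 and Arl6 were the 2 with every Gli3-/- value below every WT value, as in 3.36% of all genes. Evc2 was read at 16.5, 23.2, 23.1 and 17.7 TPM in Gli3-/- and at 17.4, 11.5 and 11.6 TPM in WT, with overlap. With all 14 libraries in 1 model, which pools the spread over groups, Evc and Evc2 passed, both higher (4.88% of the members, against 7.04% of all genes higher). The role groups differed in their medians: the 6 regulators of HH signaling lay 0.32 above the median of all genes and the 9 BBSome genes at -0.29 relative to it (0.17 and -0.24 without the library labelled WT replicate 2 of E9.25), and a difference between the groups was not tested. Flank and lateral plate markers were higher in the same Gli3-/- libraries, as given above. Endothelial markers (8 genes) summed to 100.3 to 169.5 TPM in E9.25 WT and 186 to 270.3 TPM in E9.25 Gli3-/-. All 8 were positive, with a median 0.48 above that of all genes (0.60 without the library labelled WT replicate 2 of E9.25). The part of both marker sets in these values was not tested.

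Whether the change with stage differed between genotypes was tested as an interaction over all 14 libraries. By limma 0 of 41 members passed, where 2.13% of all genes were called (0.477% higher, 1.65% lower), 13 had an unadjusted p under 0.05 (31.7%, against 21% of all genes) and 2 passed at an adjusted p of 0.1, both lower (4.88%, against 3.82% of all genes lower). The contrast is the change in Gli3-/- less the change in WT, and its median was -0.34 for the members and -0.24 for all genes. These medians were -0.27 and -0.16 without the library labelled WT replicate 2 of E9.25. Evc came nearest, with -0.93 ± 0.23 (SE, adjusted p = 0.0555), and passed with size factors (adjusted p = 0.0480). It was followed by Kifap3 (-0.61, adjusted p = 0.0910), Ift122 (-0.73, adjusted p = 0.132), Bbs2 (-0.53, adjusted p = 0.14) and Ift140 (-0.79, adjusted p = 0.152). Without E9.25 WT replicate 1, 6 members passed, where 7.87% of all genes were called lower and 0.92% higher, and without E9.25 Gli3-/- replicate 1 or replicate 4, 1 did (2% and 2.48% of all genes lower), whereas without the library labelled WT replicate 2 of E9.25 there were 0. The 27 and 9 stage calls in WT and Gli3-/- are therefore not shown to differ for any single member.

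The levels were also summed over the genes of each role. The 11 IFT-B genes summed to 233 to 256 TPM in E9.25 WT, 231 to 287 TPM in E9.25 Gli3-/-, 354 to 413 TPM in E10.5 WT and 322 to 335 TPM in E10.5 Gli3-/-, and in each genotype the stages did not overlap. The 4 IFT-A genes summed to 54.9 to 69.9 TPM in E9.25 WT and 89.9 to 98.7 TPM in E10.5 WT, with E10.5 Gli3-/- below the latter at 76.5 to 85.5 TPM. For the 6 regulators of HH signaling, E9.25 Gli3-/- libraries (83.5 to 127 TPM) and E10.5 Gli3-/- libraries (101 to 114 TPM) overlapped, while E9.25 WT libraries (57.4 to 91.8 TPM) lay below E10.5 WT libraries (100.4 to 119 TPM).

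**Figure D5:**
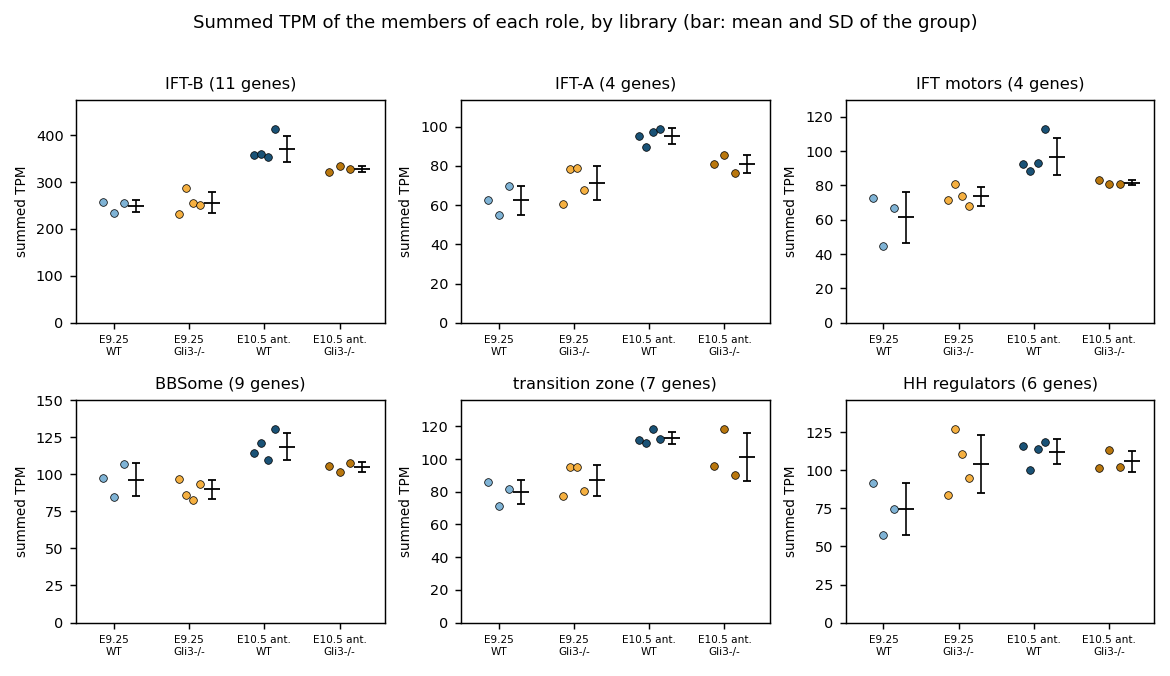
Summed TPM of the members of each role (6 panels, linear axes from 0) in each library (points), with the mean and SD of each group. E10.5 WT libraries lie above all E9.25 WT libraries in every panel, and the single low E9.25 WT motor value, 44.5 TPM, is that of replicate 2.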

How the data were processed

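RNA from pooled forelimb buds of 14 libraries was sequenced as single 100-base reads. According to the methods of the study, reads were aligned by the authors with HISAT2 (version not given in the sources used here), and the tool and annotation behind the gene tables are not stated. The submitters' processing notes name build mm10, and the coordinates of all 41 members overlapped their RefSeq GRCm38.p6 genes. The deposited tables give for each gene a coverage (mean read depth per base), an FPKM value (reads scaled by gene length and library size) and a TPM value, which the authors scaled to the same sum in each library. No raw counts were used here. Library sizes were estimated from the ratio of coverage to FPKM.

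A gene was tested where 3 or more of the libraries in a comparison reached TPM 1, on log2(TPM + 1), a scale that understates the changes of low genes, with limma 3.58.1 in R 4.3.3 (eBayes with trend, Benjamini-Hochberg adjustment over all genes tested, threshold 0.05). Each comparison used its own libraries and the interaction all 14. The method was run on simulated data with independent noise in each gene and no shift shared by the genes of a library. Its behaviour under such shifts was not tested. Tables were handled with Python 3.11.15 and pandas 2.3.3. The change of a gene relative to the others is its log2 fold change less the median of all genes tested. Members that passed are named by size, up to 12 per direction, and where fewer than 5 passed the 5 with the smallest p are named. Of the other cilium genes up to 4 per comparison are named. The members and all lists were chosen with earlier results of these data known. Promoter windows came from RefSeq (GRCm38.p6). One promoter match and one further gene are not reported here. Alternatives were the pseudocount (0.1), the filter (none, or TPM 5), the trend, the scaling (quantile, size factors, gene span), sample weights, a replicate block, 1 model for all libraries and leaving out each library.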

Additional observations from a re-analysis of the deposited data

Results flagged for a closer look

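Over the 41 members, 82 groups of 4 libraries were screened for a single value far from the others by Dixon's test, whose chance rate is about 1 in 20 groups, and 2 stood out. Bbs4 was read at 7.42 TPM in E9.25 Gli3-/- replicate 4, where the other replicates lay between 8.08 and 8.12 TPM. Bbs7 was read at 7.20 TPM in E9.25 Gli3-/- replicate 1, where the others lay between 7.74 and 7.79 TPM.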

How the results depend on the processing

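For the stage comparison in WT, 27 members were called, and 14 with size factors, 8 with quantile normalization, 10 with the trend with gene span removed and 15 with a replicate block, with 17 to 27 when a library was left out. In Gli3-/- 9 were called (22%, against 15.8% of all genes higher) and 15 with sample weights (36.6%, against 26.8%). When a library was left out there were 5 to 12 (12.2% to 29.3%, against 8.39% to 19.0% of all genes higher). For genotype at E10.5, where 0 were called, there were 2 at an adjusted p of 0.1 (4.88%, against 5.1% of all genes lower). With sample weights there were 6 (14.6%, against 5.69%). There was 1 each (2.44%) with size factors (against 3.02%), quantile normalization (2.71%) and the gene span trend removed (3.07%). A replicate block by the numbers in the table names also gave 1 (against 1.67%). When a library was left out there were 0 to 2 (at most 4.88%, against 1.14% to 2.91% of all genes lower). For genotype at E9.25 there were 2 with all 14 libraries in 1 model (4.88%, against 7.04% of all genes higher). For the interaction there were 2 at an adjusted p of 0.1 (4.88%, against 3.82% of all genes lower) and 3 with weights (7.32%, against 4.22%). There was 1 each (2.44%) with size factors (against 1.4%) and the gene span trend removed (1.26%). When a library was left out there were 0 to 6 (at most 14.6%, against 0.677% to 7.87% of all genes lower). The members' median relative to all genes moved without a filter on TPM, from -0.02 to 0.11 for genotype at E9.25, from 0.17 to 0.36 for stage in WT (0.15 to 0.23 when a library was left out) and from -0.11 to -0.25 for the interaction, and with weights from 0.16 to 0.10 for stage in Gli3-/-. The sign turned for Ift43 (-0.027) and Kifap3 (-0.059) with the gene span trend removed and for Ift22 (-0.0067) and Bbs7 (-0.029) with quantile normalization, all for stage in WT. The cause of these changes was not tested. The members' median for genotype at E9.25, 0.20, became -0.01 with size factors, -0.08 with quantile normalization and -0.03 with the gene span trend removed, with 22 or 23 of 41 negative. Of the members named for their call or smallest p, the 4 above were the ones whose sign turned in the settings run. Replicate numbers of the titles did not pair the libraries (mean correlation of same-numbered deviations between -0.18 and 0.04). By the numbers in the table names at E10.5 the mean was 0.19 (0.05 to 0.32), against -0.06 for other pairs. Whether those numbers mark pairs was not tested, and the main fit had no block. A block by the title numbers gave 15 calls for stage in WT and 7 for stage in Gli3-/- (24.2% and 15.1% of all genes higher). It gave 0 for genotype at E9.25, genotype at E10.5 and the interaction. In a block fit a library whose number the other group lacks carries no weight. Depth is an estimate, so no counting interval is given for a TPM value.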
